A study of Mus musculus with 9 samples.

Results

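The 9 genes described here encode the receptor chains, kinases, transcription factor and regulators through which cytokines of the IL-6 family instruct neural progenitors to make glia. They were taken by name from the table of 14670 genes, as the entries whose symbol was *Ctf1*, *Lifr*, *Il6st*, *Cntfr*, *Jak1*, *Jak2*, *Stat3*, *Socs3* or *Ptpn11*, and all 9 were listed once. As background, cardiotrophin 1 (*Ctf1*) and ciliary neurotrophic factor bind a receptor made of the signal transducing chain *Il6st* and the leukaemia inhibitory factor receptor *Lifr*, with the membrane anchored chain *Cntfr* needed for ciliary neurotrophic factor. The receptor carries the tyrosine kinases Jak1 and Jak2, which phosphorylate Stat3, and phosphorylated Stat3 enters the nucleus and activates astrocyte genes together with histone acetyltransferases and Smad proteins. Socs3 is induced by Stat3 and shuts the receptor off, and the phosphatase encoded by *Ptpn11* binds the activated receptor and leads the signal towards the Ras-Erk cascade, which favours neurons when active early.

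RNA was sequenced from the microdissected cerebral cortex of mouse embryos at embryonic day 16.5, around the time when the cortex turns from making neurons to making glia. The 3 genotypes were control (+/+ in the labels, but heterozygous or wild-type littermates in the methods), *Fzd3* mutant (*Fzd3* -/-) and *Celsr3* mutant (*Celsr3* -/-), with 3 libraries each, all on a mixed C57Bl/6 and CD1 background. Both mutations are constitutive, so that every cell of the cortex carried them. Nothing in the sources says whether a library came from 1 embryo or from a pool. Values are CPM, read counts that the authors scaled for each library. The listed genes summed to 1012200 CPM in control library 2, more than scaling to depth alone can give. The step between neighbouring values gave between 39857305 and 69600589 reads on the listed genes per library. In these libraries 3 reads corresponded to between 0.0427 and 0.0752 CPM, which covers counting error only.

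The mutated genes were checked first. *Celsr3* mRNA was at 122, 139 and 118 CPM in the libraries of its own mutants, against 196, 243 and 214 CPM in controls. The log2 difference was -0.78 (limma adjusted P = 0.00180). With a block on replicate number it was -0.71 and missed the threshold (limma adjusted P = 0.0699). *Fzd3* mRNA was at 46.5, 39.8 and 59.6 CPM in *Fzd3* mutants and at 58.0, 67.7 and 46.9 CPM in controls, with overlapping ranges. The *Fzd3* allele lacks exon 3, and a value for the whole gene does not check that label. Markers of the dorsal telencephalon were present in every library, led by *Neurod6* at 758 to 947 CPM, and the 5 choroid plexus markers were not in the table. *Celsr3* mutant library 4 stood apart from the other 8 by its meningeal fibroblast genes. *Col3a1* was at 87.6 CPM there and between 2.61 and 6.86 CPM elsewhere, and the 5 listed markers of these cells summed to 175 CPM against 10.5 to 21.0 CPM. The comparisons of the 9 genes that include *Celsr3* mutants are therefore also given without this library. In *Fzd3* mutants against controls it enters only the shared estimate of spread, and no call among the 9 genes changed without it. The log2 difference of *Celsr3* mRNA was -0.73 without library 4 (limma adjusted P = 0.0119).

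Among the 9 genes, all lie outside shared exons or nearly so. *Jak1* shares 4 exon bases with *Raver2*, *Stat3* shares 72 with *Stat5a* and *Ctf1* shares 87 of its 1824 with *Ctf2*, each on the opposite strand, and the use of strand in the counting is not given in the sources used here. Positions are from the GENCODE annotation of GRCm38, which need not be the one behind the deposited values. *Lifr* (XLOC_010695) lies on the plus strand of chromosome 15 from 7090614 to 7197489, *Il6st* (XLOC_008272) on the plus strand of chromosome 13 from 112464070 to 112510086, and *Cntfr* (XLOC_023063) on the minus strand of chromosome 4 from 41657498 to 41697089. The kinase genes are *Jak1* (XLOC_023491) on the minus strand of chromosome 4 from 101152367 to 101265282 and *Jak2* (XLOC_015555) on the plus strand of chromosome 19 from 29251828 to 29313080. *Stat3* (XLOC_006013) and *Socs3* (XLOC_006238) are both on the minus strand of chromosome 11, from 100885098 to 100939540 and from 117966079 to 117970047. *Ctf1* (XLOC_029338) is on the plus strand of chromosome 7 from 127712736 to 127718192, and *Ptpn11* (XLOC_025861) on the minus strand of chromosome 5 from 121130533 to 121191397.

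Stat3 binds DNA at the letters TTCNNNGAA, which read the same on both strands. A search for them in RefSeq promoter windows of 300 bases (250 before and 50 after the start of transcription, GRCm38.p6) covered all 9 genes, and only the window of *Socs3* held a match, whose first base lies 154 bases before the start. Of all 32851 windows 8.30% held these letters, and of all 27025 genes 9.55% had at least 1 such window, against 1 of the 9 genes. The window of *Socs3*, the gene through which Stat3 limits its own signal, is shown with the match in capitals (chr11:117969317-117969616, minus strand), beside the first of 2 windows of *Lifr*, the gene of the 9 with the largest difference between genotypes (chr15:7129322-7129621, plus strand). A match is a description of the letters only, and their absence from the other windows says nothing about binding elsewhere. The RefSeq starts used here differ from the GENCODE positions above for some genes. All windows of *Lifr*, *Cntfr* and *Socs3* lie inside the gene as placed there, so the outermost GENCODE start of these genes was not searched.

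*Socs3* promoter: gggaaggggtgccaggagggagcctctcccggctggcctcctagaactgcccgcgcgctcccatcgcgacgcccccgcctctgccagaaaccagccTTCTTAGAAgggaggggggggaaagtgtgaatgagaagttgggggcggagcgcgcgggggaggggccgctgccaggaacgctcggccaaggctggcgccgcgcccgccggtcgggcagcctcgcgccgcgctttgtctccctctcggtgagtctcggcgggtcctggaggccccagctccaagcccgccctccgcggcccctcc

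*Lifr* promoter: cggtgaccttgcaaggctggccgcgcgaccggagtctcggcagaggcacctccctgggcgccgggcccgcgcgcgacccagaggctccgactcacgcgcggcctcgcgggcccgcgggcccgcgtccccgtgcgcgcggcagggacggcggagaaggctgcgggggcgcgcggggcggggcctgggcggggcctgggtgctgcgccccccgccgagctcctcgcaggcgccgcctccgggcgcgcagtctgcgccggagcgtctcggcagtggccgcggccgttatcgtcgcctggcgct

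Levels of different genes were compared as CPM per kb of annotated exon, because long transcripts collect more reads. In controls the kinase *Jak2* was highest, at 28.8 ± 0.255 CPM per kb (s.d., n = 3), followed by *Ptpn11* at 25.2 ± 0.635, *Jak1* at 14.4 ± 0.316 and *Cntfr* at 11.7 ± 0.534 CPM per kb. The signal transducing chain *Il6st* was at 2.59 ± 0.234, *Stat3* at 1.96 ± 0.156, *Socs3* at 1.65 ± 0.143, *Lifr* at 1.22 ± 0.0509 and *Ctf1* at 0.704 ± 0.192 CPM per kb. No gene's 3 control libraries overlapped those of the next gene in this order, and dividing by the longest transcript instead left all 9 ranks in place. The receptor chains were thus unevenly represented in control mRNA, with the anchored chain *Cntfr* 4.55 ± 0.201 times as high as *Il6st* per kb, and *Lifr* 0.473 ± 0.0603 times as high (s.d., n = 3). Both mutants kept the first 5 ranks and the last. In *Fzd3* mutants *Socs3*, *Stat3* and *Lifr* were at 1.94 ± 0.201, 1.91 ± 0.197 and 1.83 ± 0.218 CPM per kb (s.d., n = 3), with overlapping libraries, so these 3 could not be ordered there. In *Celsr3* mutants *Stat3* and *Socs3* overlapped as well and could not be ordered.

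**Figure D1:**
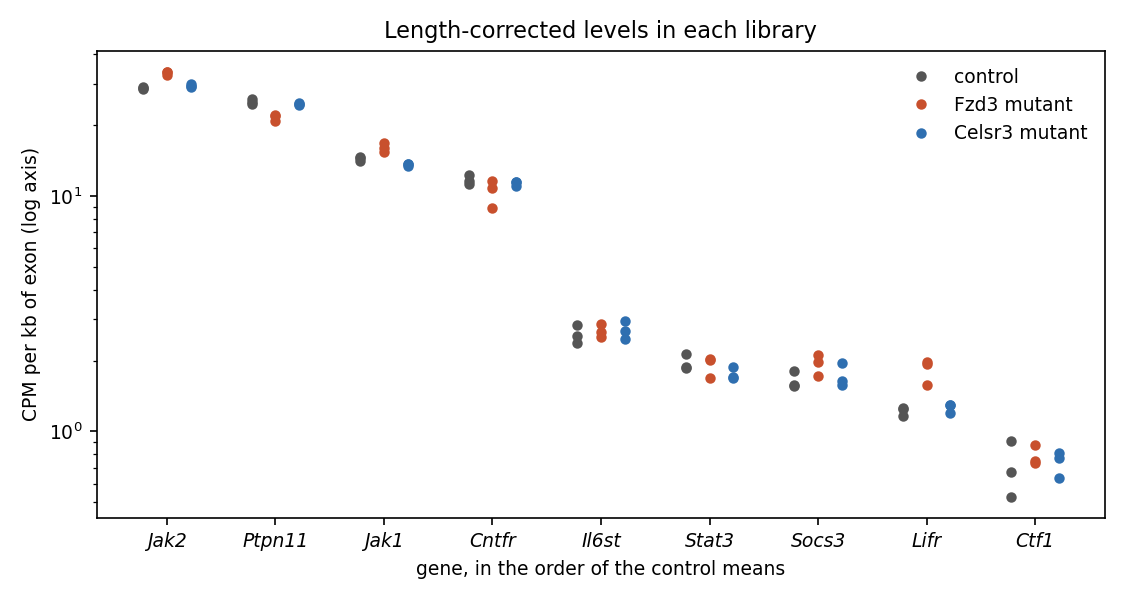
CPM per kb of exon on a log axis for the 9 genes in the order of their control means, with 1 point per library (3 per genotype). *Jak2*, *Ptpn11*, *Jak1* and *Cntfr* lie at or above 8.92 CPM per kb in every library and the other 5 genes at or below 2.94, and the *Fzd3* mutant points of *Lifr* reach those of *Stat3* and *Socs3*.

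The first comparison asked whether loss of *Fzd3* was accompanied by altered mRNA of the gliogenic cytokine pathway. In *Fzd3* mutants *Lifr*, *Jak2* and *Jak1* rose and *Ptpn11* fell relative to controls, whereas *Il6st*, *Cntfr*, *Stat3*, *Socs3* and *Ctf1* did not pass the test. The changes were of 50.1% for *Lifr* and between 11.9% and 15.6% for the others. Differences were estimated with limma on log2(CPM + 0.5), a scale that understates the change of low genes, in a single fit of the 9 libraries, with two-sided P values, Benjamini-Hochberg adjustment across 14670 genes and calls at 0.05. Of the 9 genes, 4 passed (44.4%), against 29.8% of all genes tested, 3 of them upward, against 15.0% of all genes, and 1 downward, against 14.8%. The shares were not compared by a test, and a list of 9 genes with 4 calls stands in a comparison where many genes differed. The median log2 difference was 0.13 over the 9 genes and -0.00056 over all genes.

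**Figure D2:**
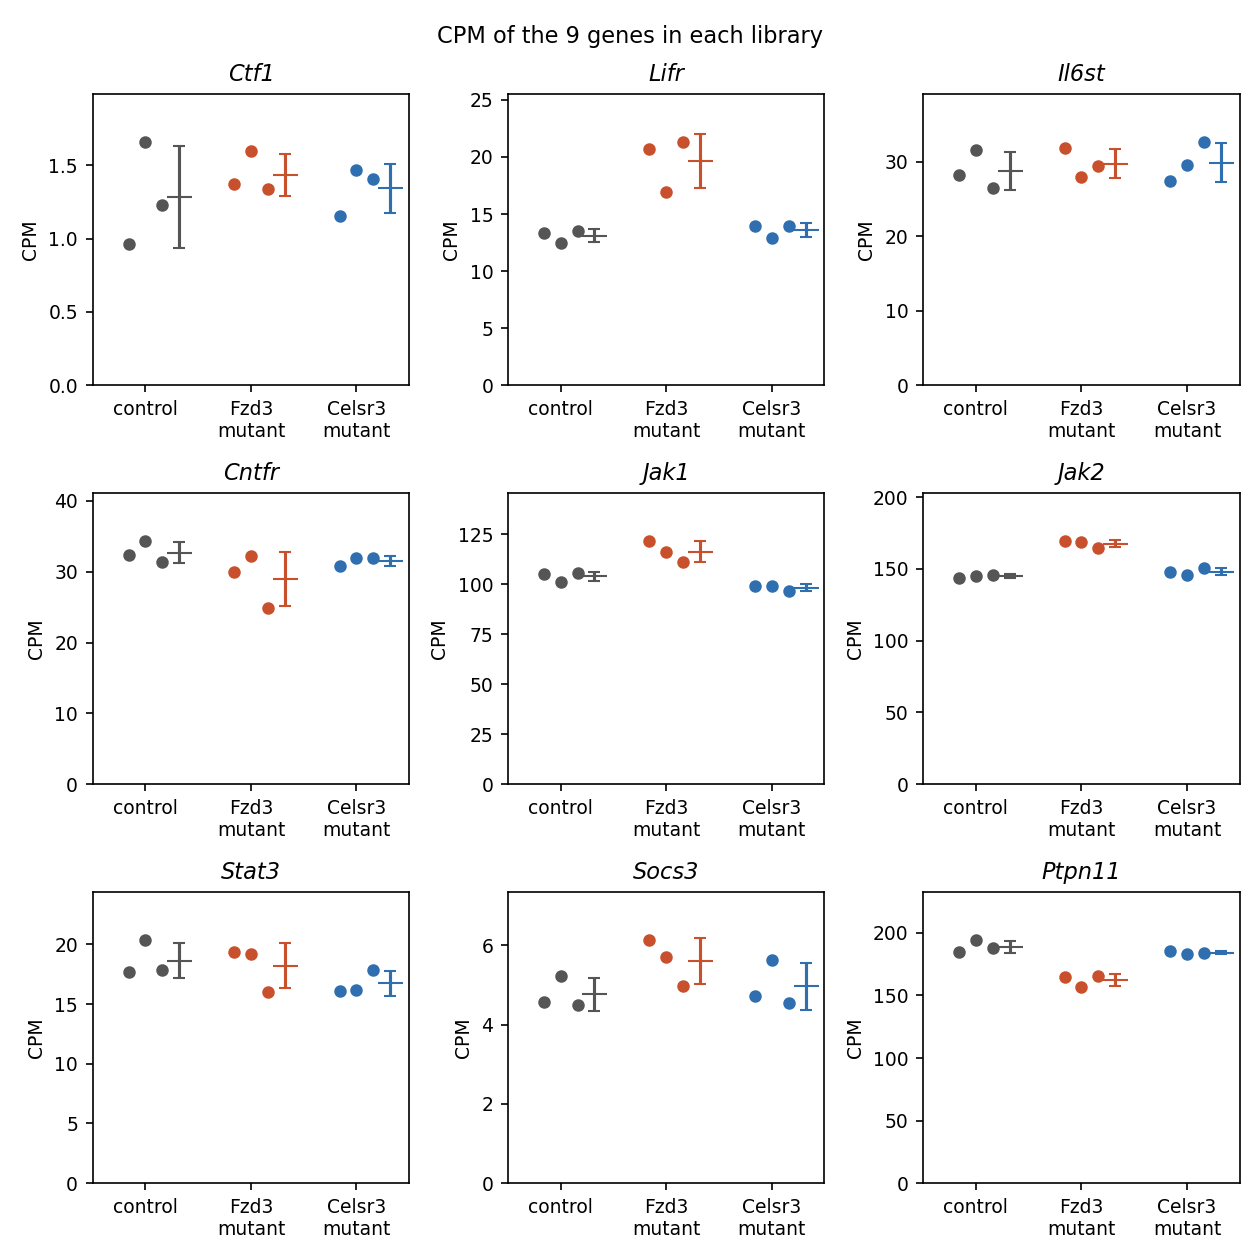
CPM of the 9 genes in each library (points), with the mean and s.d. of the 3 libraries of a genotype beside them, on axes that start at 0. The *Fzd3* mutant points lie above all others for *Lifr*, *Jak1* and *Jak2* and below all others for *Ptpn11*, and the genotypes overlap for the other 5 genes.

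Of the receptor chains, *Lifr* carried the change. It was at 20.7, 17.0 and 21.3 CPM in the *Fzd3* mutants, against 13.4, 12.5 and 13.5 CPM in controls, and *Celsr3* mutants had 14.0, 12.9 and 14.0 CPM. All 3 *Fzd3* mutant libraries were above the other 6, and library 2 was the lowest of them. The log2 difference from controls was 0.56 (standard error 0.0910, 95% confidence interval 0.36 to 0.76, limma adjusted P = 0.00114, higher in 3 of 3 libraries). *Il6st*, which forms the signalling receptor with *Lifr*, was at 31.8, 27.9 and 29.4 CPM in *Fzd3* mutants and at 28.2, 31.6 and 26.5 CPM in controls. These ranges overlapped, and the log2 difference was 0.05 (95% confidence interval -0.14 to 0.23, limma adjusted P = 0.698). *Cntfr*, the chain that confers binding of ciliary neurotrophic factor, was at 30.0, 32.2 and 24.8 CPM in *Fzd3* mutants against 32.3, 34.3 and 31.4 CPM in controls, with a log2 difference of -0.18 (95% confidence interval -0.36 to 0.01, limma adjusted P = 0.140). Its lowest value was in *Fzd3* mutant library 3, and library 2 lay within the range of the controls. The estimate depended on them, at -0.070 without library 3 (limma adjusted P = 0.446) and -0.26 without library 2 (limma adjusted P = 0.0525).

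The balance of the receptor chains was set out as the ratio of *Lifr* to *Il6st* per kb, chosen after the values were seen. This ratio was 0.671, 0.626 and 0.746 in *Fzd3* mutants, 0.488, 0.407 and 0.525 in controls and 0.525, 0.449 and 0.440 in *Celsr3* mutants. The *Fzd3* mutant libraries were above the other 6, which restates the rise of *Lifr* beside the level of *Il6st*. *Cntfr* relative to *Lifr* was 5.60, 7.36 and 4.51 in *Fzd3* mutants, 9.37, 10.7 and 9.02 in controls and 8.52, 9.60 and 8.87 in *Celsr3* mutants, and its *Fzd3* mutant values were likewise apart from the others. *Cntfr* relative to *Il6st*, the ratio without *Lifr*, was 3.76, 4.61 and 3.37 in *Fzd3* mutants, 4.57, 4.34 and 4.74 in controls and 4.48, 4.32 and 3.91 in *Celsr3* mutants, and these ranges overlapped.

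The kinases that dock on these chains both rose in *Fzd3* mutants. *Jak2* was at 169, 169 and 165 CPM in *Fzd3* mutants, at 143, 145 and 146 CPM in controls and at 148, 146 and 150.5 CPM in *Celsr3* mutants. The *Fzd3* mutant libraries lay close together and above all others, with a log2 difference from controls of 0.21 (standard error 0.0346, limma adjusted P = 0.00130). *Jak1* was at 122, 116 and 111 CPM in *Fzd3* mutants, at 105, 101 and 105 CPM in controls and at 99.3, 99.3 and 96.5 CPM in *Celsr3* mutants. Here too the *Fzd3* mutant libraries were the 3 highest, by 0.16 on the log2 scale over controls (standard error 0.0432, limma adjusted P = 0.0171). Without *Fzd3* mutant library 1 or without control library 2 this call was lost (log2 differences 0.13 and 0.14, limma adjusted P = 0.0744 and 0.0620).

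*Ptpn11* moved the other way. It was at 164, 157 and 165 CPM in *Fzd3* mutants, at 185, 194 and 188 CPM in controls and at 186, 183 and 184 CPM in *Celsr3* mutants. Each *Fzd3* mutant library was below the other 6, and the log2 difference from controls was -0.22 (standard error 0.0377, 95% confidence interval -0.30 to -0.14, limma adjusted P = 0.00151). Its reads numbered between 7080 and 12903 per library.

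The transcription factor at the end of the cascade and its feedback inhibitor did not pass the test. *Stat3* was at 19.4, 19.2 and 16.1 CPM in *Fzd3* mutants, at 17.7, 20.4 and 17.9 CPM in controls and at 16.1, 16.2 and 17.9 CPM in *Celsr3* mutants, and the 3 ranges overlapped. Its log2 difference in *Fzd3* mutants was -0.04 (95% confidence interval -0.23 to 0.16, limma adjusted P = 0.805), positive at 0.05 without *Fzd3* mutant library 3 and at 0.03 without control library 2. *Socs3* was at 6.13, 5.70 and 4.98 CPM in *Fzd3* mutants, at 4.57, 5.24 and 4.49 CPM in controls and at 4.73, 5.64 and 4.54 CPM in *Celsr3* mutants. Of the *Fzd3* mutant libraries, 1 and 2 were above all others, whereas library 3 was within the range of the controls, and the log2 difference of 0.21 had a 95% confidence interval from -0.05 to 0.48 (limma adjusted P = 0.209). The ligand gene *Ctf1* was the least abundant of the 9, with 49 to 101 reads per library and between 0.963 and 1.66 CPM. Control libraries 1 and 2 held its lowest and its highest value, and its log2 difference in *Fzd3* mutants, 0.13, had an interval from -0.24 to 0.51 (limma adjusted P = 0.595).

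**Figure D3:**
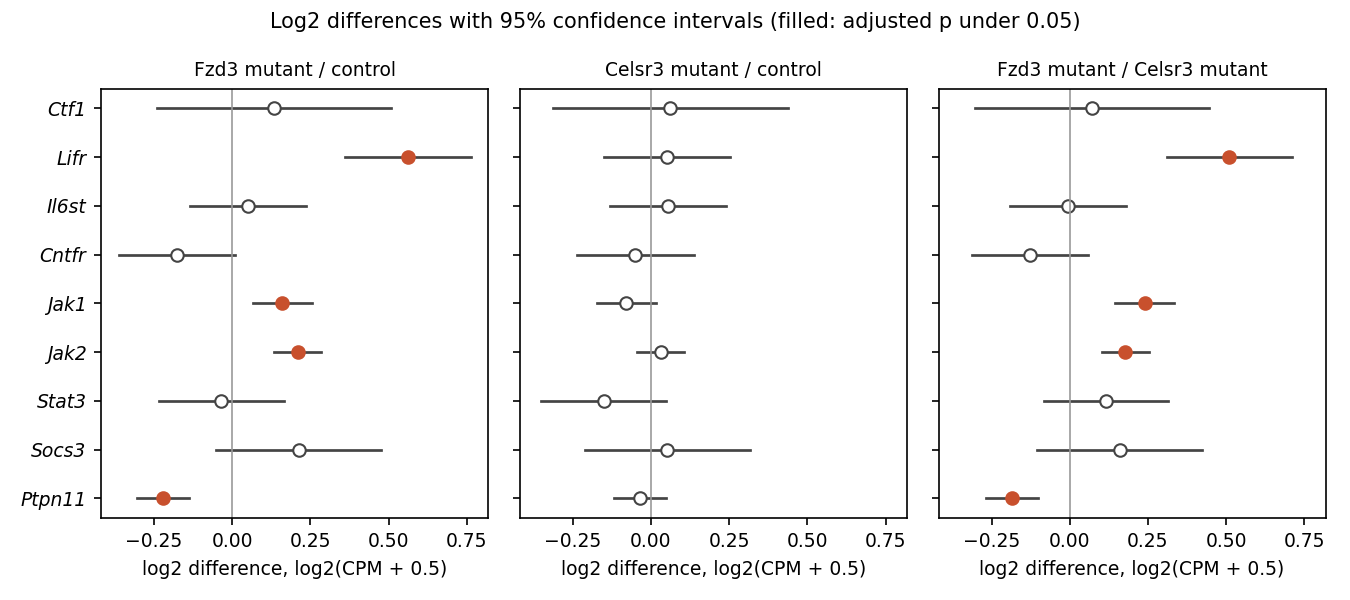
Log2 differences on the log2(CPM + 0.5) scale with 95% confidence intervals for the 9 genes in the 3 comparisons, with filled points where the limma adjusted P was under 0.05. *Lifr*, *Jak1* and *Jak2* are filled above 0 and *Ptpn11* below 0 in both comparisons with the *Fzd3* mutants, and no point is filled in the comparison of *Celsr3* mutants with controls.

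In *Celsr3* mutants, the question was the same for loss of the cadherin that acts with Fzd3. Of the 9 genes, 0 passed the threshold in limma, and 0 had an unadjusted P under 0.05, against 0.307% and 800 of all 14670 genes. The estimates lay between -0.15 (*Stat3*) and 0.06 (*Ctf1*), with a median of 0.03 over the 9 genes and -0.0022 over all genes. *Jak1* was the only gene of the 9 whose *Celsr3* mutant libraries did not overlap the controls, at a log2 difference of -0.08 (95% confidence interval -0.17 to 0.02, limma adjusted P = 0.970). *Lifr* was at 0.05, with an interval from -0.15 to 0.25 that does not reach the 0.56 seen in *Fzd3* mutants, and *Jak2* at 0.03 with an interval from -0.05 to 0.11. Without *Celsr3* mutant library 4, again 0 of the 9 passed, with *Lifr* at 0.03, *Jak2* at 0.02, *Jak1* at -0.07 and *Stat3* at -0.20.

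The mutants were also compared with each other, since the comparisons above share their control libraries. *Lifr* (log2 difference 0.51, standard error 0.0910, limma adjusted P = 0.00213), *Jak1* (0.24, standard error 0.0432, limma adjusted P = 0.00228) and *Jak2* (0.18, standard error 0.0346, limma adjusted P = 0.00337) were higher in *Fzd3* than in *Celsr3* mutants, and *Ptpn11* was lower (-0.18, standard error 0.0377, limma adjusted P = 0.00434). Thus 4 of the 9 passed, against 29.6% of all genes, with 3 upward against 15.3% and 1 downward against 14.3%. The other 5 were between -0.13 (*Cntfr*) and 0.16 (*Socs3*), at limma adjusted P of 0.288 or more. Without *Celsr3* mutant library 4 the same 4 genes passed, at 0.53, 0.23, 0.19 and -0.19. Under a block on replicate number the call of *Ptpn11* was lost (-0.19, limma adjusted P = 0.0542).

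Among the cytokine genes themselves, the entry named *Cntf* was at 144 ± 2.06 CPM in controls and 130.1 ± 4.45 in *Fzd3* mutants (log2 difference -0.14, limma adjusted P = 0.0321). It cannot be read as ciliary neurotrophic factor mRNA, because 847 of the 1073 exon bases of *Cntf* (78.9%) lie in exons of *Zfp91* on the same strand, and *Zfp91* has no entry of its own. Its call was lost without *Fzd3* mutant library 1 or 2 or control library 1 or 2, with an adjusted P of up to 0.121. Of 12 other cytokine receptor genes 8 were listed, and *Osmr* (0.50, limma adjusted P = 0.0364), *Ifnar2* (0.20, limma adjusted P = 0.0423) and *Ifnar1* (0.13, limma adjusted P = 0.0295) rose in *Fzd3* mutants while 5 did not pass, a share of 37.5% called against 29.8% of all genes. *Osmr*, which pairs with *Il6st* to bind oncostatin M, was low, at 3.21, 2.83 and 3.04 CPM against 1.79, 2.17 and 2.03 CPM in controls, and its call was lost without any single library of the 6 compared (limma adjusted P of 0.0575 to 0.112). *Ifnar1* and *Ifnar2* encode the chains of the type I interferon receptor, and leaving out single libraries took their adjusted P up to 0.103 (without *Fzd3* mutant library 2 or 3 or control library 1 or 3) and 0.155 (without *Fzd3* mutant library 1 or 2, control library 1 or 3 or any *Celsr3* mutant library).

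Among the other transcription factors of the pathway, *Stat2*, which acts downstream of interferon receptors, rose in *Fzd3* mutants from 36.4 ± 0.757 to 45.1 ± 1.38 CPM (s.d., n = 3; log2 difference 0.31, limma adjusted P = 0.00114). Of the inhibitors of the pathway, 14 of 17 were listed, and *Socs5* rose (0.17, limma adjusted P = 0.0491), *Socs6* fell (-0.20, limma adjusted P = 0.0232) and 12 did not pass, a share of 14.3% called against 29.8% of all genes. The call of *Socs5* was lost without any single library except control library 3, with an adjusted P of up to 0.166, and that of *Socs6* without *Fzd3* mutant library 2 or control library 1, with an adjusted P of up to 0.0893. Of the adaptors and the Ras-Erk cascade, into which *Ptpn11* leads, all 17 genes were listed and 15 did not pass, a share of 11.8% called against 29.8% of all genes. *Gab1*, a docking protein that binds the *Ptpn11* phosphatase, fell from 49.0 ± 2.29 to 37.4 ± 1.72 CPM (-0.38, limma adjusted P = 0.000740), and the kinase gene *Araf* rose from 80.9 ± 4.79 to 93.1 ± 3.28 CPM (0.20, limma adjusted P = 0.0127; s.d., n = 3). The *Araf* call was lost without *Fzd3* mutant library 2 or control library 2 (limma adjusted P = 0.0550 and 0.0517).

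Genes that textbooks list as Stat3 targets did not move in a single direction. Of 20 genes 11 were listed, and in *Fzd3* mutants 2 rose, 3 fell and 6 did not pass, against 15.0% of all genes up and 14.8% down. *Myc* rose from 13.1 ± 2.16 to 29.5 ± 2.02 CPM (log2 difference 1.15, limma adjusted P = 7.4e-05) and *Vegfa*, the vascular growth factor gene, from 42.1 ± 5.92 to 65.7 ± 10.5 CPM (0.63, limma adjusted P = 0.00227). The cyclin gene *Ccnd1* fell from 42.8 ± 4.52 to 23.2 ± 1.61 CPM (-0.87, limma adjusted P = 0.000320), and *Birc5*, which is transcribed in dividing cells, from 18.4 ± 1.04 to 11.0 ± 2.19 CPM (-0.73, limma adjusted P = 0.00126; s.d., n = 3). The astrocyte genes *Gfap*, *S100b* and *Aqp4* were among the 9 not analysed here. The median of the 11 was -0.11, against -0.00056 over all genes.

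Nuclear cofactors and brakes of astrocyte genes were all listed, and 1 of 20 rose, 9 fell and 10 did not pass in *Fzd3* mutants, against 15.0% of all genes up and 14.8% down, with a median of -0.21. The proneural factors *Neurog1* and *Neurog2*, which keep coactivators from Stat3, fell from 2.60 ± 0.846 to 0.602 ± 0.292 CPM (log2 difference -1.49, limma adjusted P = 0.00126) and from 81.6 ± 6.24 to 44.7 ± 4.51 CPM (-0.86, limma adjusted P = 8.5e-05; s.d., n = 3). *Nfia*, a factor that opens astrocyte genes to Stat3, fell from 247 ± 47.3 to 175 ± 14.4 CPM (-0.49, limma adjusted P = 0.00886), and *Ezh2*, a histone methyltransferase, from 256 ± 5.52 to 185 ± 11.7 CPM (-0.47, limma adjusted P = 0.000128). *Olig2*, a factor of oligodendrocyte precursors and other progenitors, was at 11.6, 11.4 and 5.23 CPM in *Fzd3* mutants against 3.66, 3.88 and 5.34 CPM in controls (0.98, limma adjusted P = 0.0309). *Fzd3* mutant library 3 was thus within the range of the controls, and the *Olig2* call was lost without *Fzd3* mutant library 1 or 2 or control library 1 or 2, with an adjusted P of up to 0.122. In *Celsr3* mutants, 0 genes of the 5 lists of receptors, inhibitors, adaptors, targets and cofactors passed in limma, with 3 at an unadjusted P under 0.05. Between the mutants, 3 genes passed that did not do so against controls and are named by rule, *Il11ra1* (-0.64, limma adjusted P = 0.0261), *Pias2* (-0.15, limma adjusted P = 0.0186) and *Ptpn1* (-0.15, limma adjusted P = 0.0390), each lost in some fits without a single library. These were *Fzd3* mutant library 1 or 3 or *Celsr3* mutant library 1 or 4 for *Il11ra1* (adjusted P up to 0.0996 in limma), *Fzd3* mutant library 1 or 2 or *Celsr3* mutant library 2 or 4 for *Pias2* (up to 0.0693), and any of the 6 libraries compared or control library 1 for *Ptpn1* (up to 0.133).

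**Figure D4:**
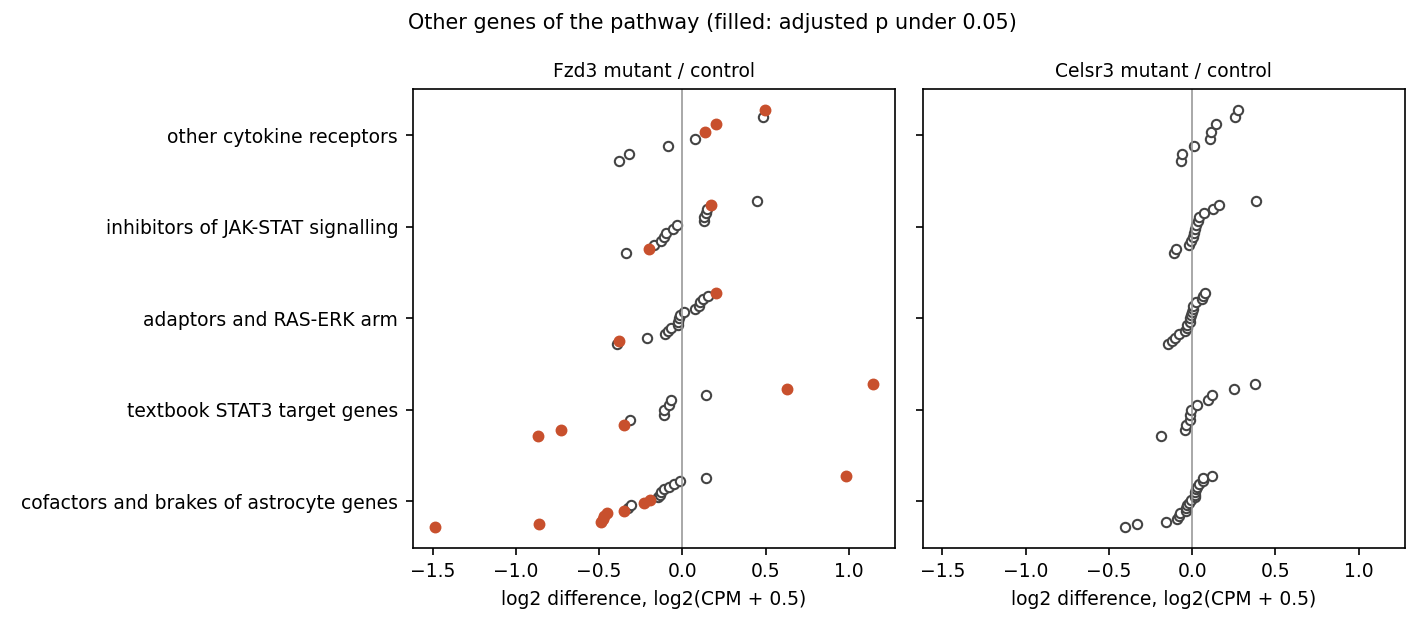
Log2 differences of the other listed genes of the pathway, 1 point per gene in 5 lists, for *Fzd3* mutants (left) and *Celsr3* mutants (right) against controls, with filled points where the limma adjusted P was under 0.05. Filled points lie on both sides of 0 in each list on the left, except for the other cytokine receptors, and none is filled on the right.

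The cells that hold these mRNAs were not separated, and in bulk cortex fewer cells of a type and less RNA per cell cannot be told apart. Some markers of several cell types passed the threshold in *Fzd3* mutants, in which 15.0% of all genes were called higher and 14.8% lower. Apical progenitor markers summed to 1683, 1737 and 1679 CPM against 2013, 2118 and 2023 CPM in controls, and 6 of 9 fell, among them *Pax6* (-0.70, limma adjusted P = 0.000120) and *Nes* (-0.67, limma adjusted P = 0.000325), while the most abundant, *Ptprz1*, did not pass. Intermediate progenitor markers summed to 383, 395 and 442 CPM against 571, 590 and 514 CPM, with 4 of 5 lower, and *Elavl4*, the most abundant, not past the threshold. Endothelial markers were higher, at 208, 199 and 190.3 CPM against 151, 152 and 154 CPM, with 4 of 9 past the threshold, including the most abundant, *Egfl7* (0.18, limma adjusted P = 0.0397), and *Flt1* (0.85, limma adjusted P = 0.000540). In *Celsr3* mutant libraries 1, 2 and 4 the endothelial markers summed to 162, 146 and 204 CPM, and library 4 lay within the *Fzd3* mutant range. Oligodendrocyte precursor markers summed to 71.2, 62.6 and 38.0 CPM against 29.4, 27.6 and 39.1 CPM, with 3 of 5 higher and *Pdgfra* the most abundant, and microglia markers to 60.7, 56.5 and 41.8 CPM against 35.2, 40.8 and 39.1 CPM, with 2 of 7 higher (28.6% called, against 29.8% of all genes) and *Csf1r* the most abundant. *Fzd3* mutant library 3 was the lowest of its genotype for both of these lists, and *Pdgfra* was not past the threshold without *Fzd3* mutant library 1 or 2 or control library 1 or 2 (limma adjusted P of up to 0.155). Of 7 astrocyte markers 3 were listed, *Aldoc*, the most abundant, lower and *Aldh1l1* and *Slc1a2* higher. Their sum overlapped between *Fzd3* mutants and controls (163, 156 and 157 CPM against 147, 175 and 176 CPM). *Celsr3* mutants, at 147, 149 and 153 CPM, lay below the *Fzd3* mutants. The call of *Aldh1l1* was lost without *Fzd3* mutant library 1 or 2 or control library 1 or 2 (limma adjusted P of up to 0.0863), and that of *Slc1a2* without any single library except *Celsr3* mutant library 4 and control library 3 (up to 0.157).

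Pericyte markers summed to 99.5, 99.0 and 90.0 CPM in *Fzd3* mutants against 81.8, 80.2 and 82.0 CPM in controls, with 1 of 5 higher (20% called, against 29.8% of all genes) and *Rgs5* the most abundant. In *Celsr3* mutant libraries 1, 2 and 4 the pericyte markers summed to 88.0, 81.2 and 96.9 CPM, and library 4 again lay within the *Fzd3* mutant range. Dorsal telencephalic markers, led by *Neurod6*, summed to between 1633.5 and 1668 CPM in *Fzd3* mutants against 1818 to 2022 CPM, with 5 of 6 lower. Projection neuron markers, led by *Dcx*, were at 4305 to 4494 CPM against 4234 to 4571 CPM, with 1 higher and 6 lower of 8, interneuron markers, led by *Dlx1*, at 219 to 282 against 236 to 269 CPM with 0 of 7 past the threshold in limma and 0 at an unadjusted P under 0.05, and thalamic markers, led by *Lef1*, at a mean of 10.8 against 13.5 CPM with 1 of 3 lower. Erythroid markers, led by *Hba-a1*, spread within genotypes, from 1570.2 to 2445 CPM in *Fzd3* mutants and from 1585 to 2539 CPM in *Celsr3* mutants, with 1 of 8 lower. Meningeal fibroblast markers, led by *Col3a1*, summed to 14.7 to 21.0 CPM in *Fzd3* mutants, with 0 of 5 past the threshold in limma and 1 at an unadjusted P under 0.05. No listed marker was at 0 in any library. The part of these shifts in the differences of *Lifr*, *Jak1*, *Jak2* and *Ptpn11* was not tested.

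**Figure D5:**
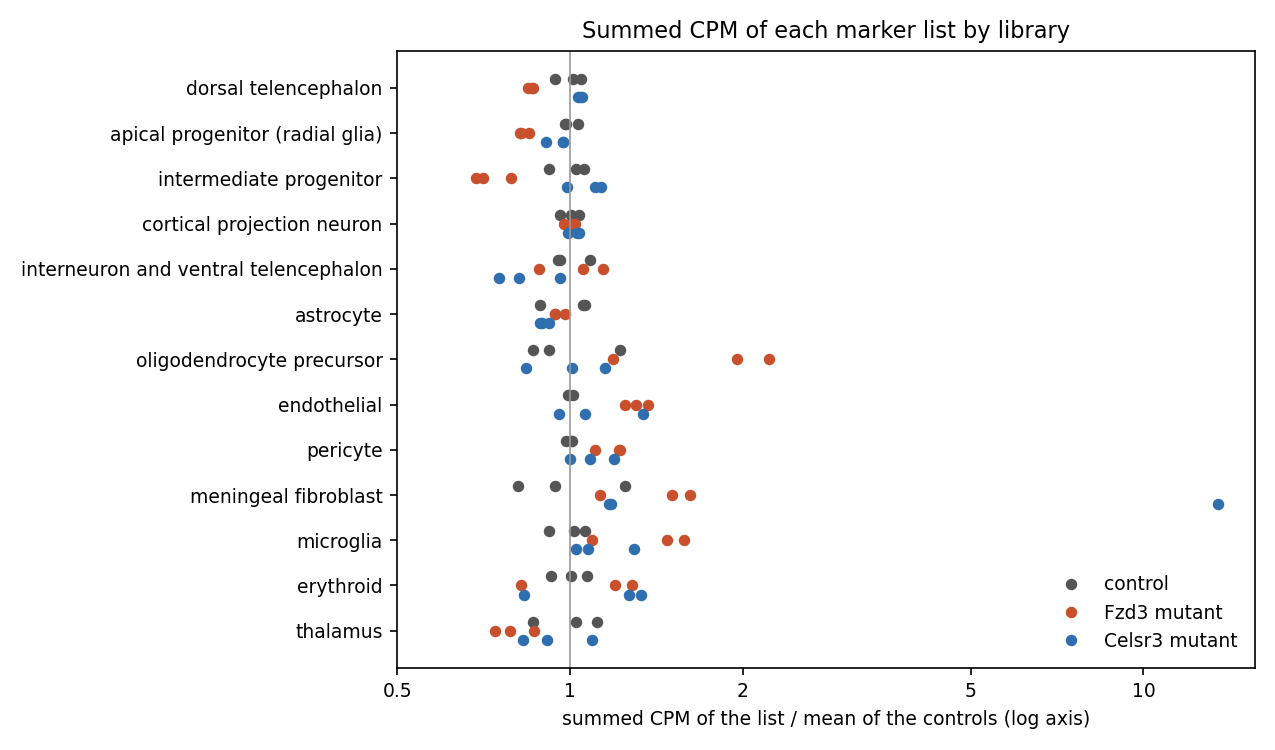
Summed CPM of each marker list in each library, divided by the mean of the 3 controls, on a log axis, with 1 point per library. The *Fzd3* mutant points lie below the controls for both progenitor lists and above them for the endothelial list, and 1 *Celsr3* mutant library (number 4) lies far to the right for meningeal fibroblast genes.

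Genes whose profile over the 9 libraries was closest to that of each changed gene were found by the mean absolute gap between log2(CPM + 0.5) profiles, each centred on its own mean, among the 11584 other genes averaging 5 CPM or more. *Lifr* was closest to *Gm26723* (gap 0.0585), *Coro2a* (0.0681) and *Klf8* (0.0693). For *Jak1* they were *Klhdc10* (0.0130), *Ehbp1* (0.0193) and *Sidt2* (0.0202), and for *Jak2* they were *Tmem41b* (0.0157), *Aida* (0.0178) and *Pfkl* (0.0182). *Ptpn11* was closest to *Epha5* (0.0177), *Nploc4* (0.0181) and *Eif3d* (0.0194). None of the 12 belongs to the lists of the pathway.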

How the data were processed

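The authors deposited CPM values per gene for 9 embryonic cortex libraries, 3 per genotype. The labels say that a sequencing company prepared the libraries and ran an Illumina Tuxedo expression analysis. The submitters' processing notes name FastQC, TopHat, TopHat2, Bowtie, Cufflinks 2.1.1, edgeR 2.12 and the builds GRCm38 and GRCh37, without roles. The labels name Trizol and the methods an RNeasy kit for the RNA. No sequencing batch or date is given, so a batch that coincides with genotype cannot be told apart from it. P values measure the spread between these libraries, which may in part be technical.

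The step of each column gave 39857305 to 69600589 reads on the listed genes per library, 100% of values being multiples within 0.02 of a step. No library repeated another of its genotype. Differences on log2(CPM + 0.5) were tested with limma 3.58.1 in R 4.3.3 (1 linear model for all 9 libraries, then contrasts, then empirical Bayes moderation with trend = TRUE). A floor of 0.5 CPM on the gene mean removed 0 genes, and adjustment (Benjamini-Hochberg) ran across 14670 genes at a threshold of 0.05. The fit was first tried on simulated reads with 200 changed genes. Their changes were larger than those of any of the 9 genes, so the trial does not cover differences as small as these. Tables were made in Python 3.11.15 with scipy 1.17.1, numpy 2.4.6 and pandas 2.3.3, and plots matplotlib 3.10.9. Exon lengths were the union of GENCODE M21 exons.

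The 9 genes and the lists were chosen with earlier results of these data known. Named genes were the 9, from each of 7 pathway lists at most the 4 largest differences past the threshold per comparison, the most abundant gene of each of 14 marker lists, the 3 closest profiles of each changed gene, and both mutated genes. Some genes within this rule are not reported here, and the plot of the pathway shows 5 of the 7 lists. *Pax6*, *Nes*, *Flt1*, *Aldh1l1*, *Slc1a2* and the receptor ratios joined the text once their values were known. Other fits changed the pseudocount, scaling, filter, moderation or library set, blocked on replicate number, or dropped each library in turn. Abundance weights were a later addition, made with the results in view. The sources do not say whether numbers shared between genotypes pair the libraries, and the main fit did not pair them.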

Additional observations from a re-analysis of the deposited data

Results flagged for a closer look

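In the direct comparison of the mutants 4 of the 9 genes passed (44.4%), against 29.6% of all genes, and these shares were not compared by a test. *Lifr* differed between *Fzd3* and *Celsr3* mutants by 0.51 on the log2(CPM + 0.5) scale (limma adjusted P = 0.00213, higher in 3 of 3 *Fzd3* mutant libraries). *Jak1* differed by 0.24 (limma adjusted P = 0.00228, higher in 3 of 3). *Jak2* differed by 0.18 (limma adjusted P = 0.00337, higher in 3 of 3). *Ptpn11* differed by -0.18 (limma adjusted P = 0.00434, lower in 3 of 3), a call lost under a block on replicate number (limma adjusted P = 0.0542).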

How the results depend on the processing

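Over 20 alternative fits no difference of a called gene changed sign. Leave-one-out fits called 2960 to 4314 genes in *Fzd3* mutants, 39 to 53 in *Celsr3* mutants and 2973 to 4471 between the mutants, with 3 to 4, 0 and 4 of the 9 genes. A block on replicate number, in which *Celsr3* mutant 4 is alone, called 3629, 29 and 2101, and between the mutants *Ptpn11* was then at -0.19 (limma adjusted P = 0.0542), leaving 3 of the 9. The fall of *Celsr3* mRNA in its own mutants also missed the threshold under the block, at -0.71 (limma adjusted P = 0.0699). Leave-one-out, *Jak1* in *Fzd3* mutants ranged from 0.13 (without *Fzd3* mutant replicate 1) to 0.19. Some uncalled estimates crossed 0. *Il6st* ranged leave-one-out from -0.0071 to 0.12 in *Fzd3* mutants, -0.011 to 0.12 in *Celsr3* mutants and -0.064 to 0.060 between the mutants, and was at -0.042 (*Celsr3* mutants, block), 0.092 (between the mutants, block) and 0.00022 (between the mutants, scaled to equal totals). *Ctf1* ranged leave-one-out from -0.00031 to 0.28, -0.072 to 0.21 and -0.0058 to 0.12 in these comparisons, *Stat3* from -0.081 to 0.051 in *Fzd3* mutants and *Socs3* from -0.034 to 0.12 in *Celsr3* mutants. The planned tests on whole reads were not run. Ranks per kb by longest transcript were the same for 9 of 9 genes.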
